A study of Mus musculus with 6 samples.

Results

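Kinesins, cytoplasmic dynein and dynactin are the motor proteins that move along microtubules, and their transcripts were compared between the hearts of mice with a knockout of Cenpf and wild-type hearts. Genes were chosen by symbol: Kif or Klc followed by a digit, Dync, Dynl, or Dctn followed by a digit, on probes that the array annotation gives exactly 1 symbol, each gene by its probe of highest mean over the 6 arrays. This gave 59 of the 19938 genes with such probes. A further 2 probes, annotated to several Dynlt1 genes at once, were left out. The 59 genes were 12 mitotic kinesins, 15 transport kinesins, 10 cilium, microtubule-depolymerising and other kinesins, 3 kinesin light chains, 18 genes of dynein and dynactin, and the pseudogene Kif4-ps.

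The tested hearts came from 3 mice labelled as cenpf knock-out and the others from 3 wild-type mice, all aged 12 months and labelled untreated, with 1 array per heart. The labels call the hearts biological replicates. Strain, sex, the cells in which Cenpf was deleted and the deleted part of the gene are not stated in the labels. All values are levels on the log2 scale as the authors deposited them, and all differences are knockout minus wild type.

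Kinesins use ATP to walk along microtubules, most of them towards the growing plus end. Mitotic kinesins build the spindle, move chromosomes and close the dividing cell, and are made mainly by cells that divide, whereas transport kinesins carry vesicles, organelles and RNA in cells that need not divide. Cytoplasmic dynein is the main motor towards the minus end and works with dynactin, a multi-subunit cofactor that links it to cargo. Cenpf, the centromere protein F, binds microtubules and, through Nde1 and Ndel1, the dynein regulatory machinery, and most heart muscle cells of an adult mouse have left the cell cycle.

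Mitotic and transport motors differed in promoter sequence, which is independent of the arrays. In RefSeq promoter windows of GRCm38.p6, each running from 250 bases before to 50 bases after a transcription start, 47 of the 59 genes had an entry, in 54 windows, since some genes have several annotated starts. Among the genes without an entry were the mitotic kinesin Kif20a and the transport kinesins Kif5a, Kif5b, Kif13b and Kif21b. The CHR, an element of cell-cycle genes searched as TTTGAA on both strands, lay in 9 of the 11 windows of mitotic kinesins (81.8%), in 1 of 13 windows of transport kinesins (7.69%) and in 1 of 16 windows of dynein and dynactin genes (6.25%). Of all 32851 windows of the same length 17.9% held it. Within 50 bases of the start it lay in 7 of the 11 mitotic windows, against 4.94% of all windows. The CCAAT box bound by NF-Y, searched as CCAAT on both strands, lay in 7 of 11 mitotic windows (63.6%), in 4 of 13 transport windows (30.8%) and in 37.4% of all windows. It lay in 5 of 16 windows of dynein and dynactin genes (31.25%), but in 3 of the 5 of dynactin. Kinesin light chains had it in 2 of 3 windows, so a high CCAAT share was not particular to mitotic kinesins. Neither motif's letters contain the other's. These counts describe letters in a window and say nothing of binding.

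Below are the bases from 90 before to 30 after the start for mitotic kinesins with a CHR close to the start, for Cenpf itself, which has the same element, and for the transport kinesin Kif16b, which has neither motif in its window. They are written 5′ to 3′ on the gene's strand, with CHR and CCAAT matches in capitals; TTCAAA and ATTGG are the same motifs on the other strand.
Kif11 (chr19:37376292-37376411, + strand): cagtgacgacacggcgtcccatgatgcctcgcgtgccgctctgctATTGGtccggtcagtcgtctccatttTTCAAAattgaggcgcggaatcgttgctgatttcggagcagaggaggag
Kif18b (chr11:102925095-102925214, - strand): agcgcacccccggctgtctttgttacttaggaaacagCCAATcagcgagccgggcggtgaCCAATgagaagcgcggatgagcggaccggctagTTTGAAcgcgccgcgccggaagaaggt
Kif22 (chr7:127042391-127042510, - strand): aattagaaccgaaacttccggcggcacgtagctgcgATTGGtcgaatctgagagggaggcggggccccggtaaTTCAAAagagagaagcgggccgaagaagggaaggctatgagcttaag
Kif23 (chr9:61946770-61946889, - strand): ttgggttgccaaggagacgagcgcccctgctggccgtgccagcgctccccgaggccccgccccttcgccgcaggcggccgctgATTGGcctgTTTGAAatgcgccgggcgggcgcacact
Cenpf (chr1:189688057-189688176, - strand): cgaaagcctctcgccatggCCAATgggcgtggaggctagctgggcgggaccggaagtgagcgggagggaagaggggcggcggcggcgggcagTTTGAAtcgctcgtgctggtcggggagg
Kif16b (chr2:142901435-142901554, - strand): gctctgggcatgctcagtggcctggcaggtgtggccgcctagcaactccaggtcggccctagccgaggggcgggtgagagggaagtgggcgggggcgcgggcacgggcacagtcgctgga

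In these windows the CHR began 19 bases before the start in Kif11 and 17 before it in Kif22, and at base 4 after it in Kif18b and base 3 in Kif23 and Cenpf. Kif15 had one 19 bases before the start, Kif20b had 2, at bases 8 and 14, and Kif4 had one at base 20. Kif15 and Kif20b had no CCAAT match in the window, while Kif4 had CCAAT matches. In Kif14 and Kif2c it lay farther out, at 228 and 103 bases before the start. Kif18a and Kif2b, which is known mainly from testis, had no TTTGAA in the window.

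**Figure D1:**
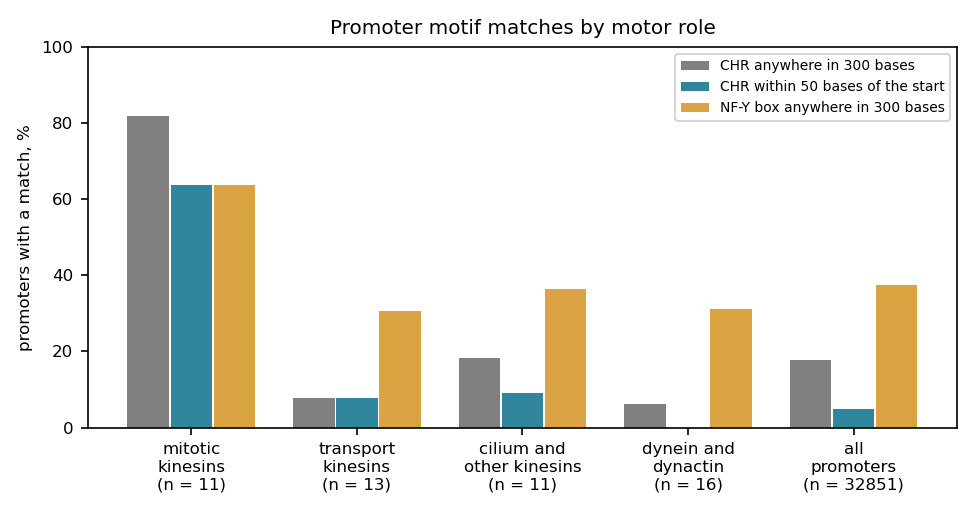
Share of RefSeq promoter windows of 300 bases, in percent, that hold a CHR anywhere, a CHR within 50 bases of the start, or the CCAAT box bound by NF-Y, by motor role and for all windows; n is the number of windows. The mitotic kinesins stand at 81.8% for the CHR, against 17.9% of all windows.

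Cenpf, the targeted gene, had levels of 6.35, 6.10 and 6.68 in knockout hearts, against 8.75, 8.54 and 8.04 in wild-type hearts, so the groups did not overlap. It fell by 2.07 (limma, standard error 0.21, adjusted p = 0.0286). Permuting the genotype over the hearts, by an exact two-sided test, gave p = 0.1, and groups of 3 cannot give a smaller one. Leaving out any 1 heart except wild-type replicate 3 ended the call, the adjusted p then lying between 0.0689 and 0.198. Over the table, 6 of 21789 probes were called at an adjusted p under 0.05, and 293 without wild-type replicate 3. The array medians lay between 6.92 and 6.97. A background level of 6.35 was set from 1210 olfactory and vomeronasal receptor probes, which are taken as silent in heart, and the level of 1 probe cannot be set against that of another. The knockout mean of Cenpf, 6.37, lay near this background level, so the size of its fall is uncertain. All 12 ventricular cardiomyocyte markers lay above the background level, with differences from -0.05 to 0.18. Among endothelial, macrophage and monocyte, and smooth muscle markers, 7, 8 and 6 were measured, 1, 1 and 2 had an unadjusted p under 0.05, and 0 were called by limma. The shares at such a p were 14.3%, 12.5% and 33.3%, against 9.9% of all probes, of which 0.0275% were called. The markers at such a p were Kdr of endothelial cells, with a difference of 0.43, Cd14 of monocytes with -0.79, and the smooth muscle genes Acta2 with -1.28 and Myh11 with 0.32. The lists went in both directions. Endothelial markers were 5 higher and 2 lower, Emcn with -0.27 and Pecam1 with -0.03. Macrophage and monocyte markers were 4 higher and 4 lower, and smooth muscle markers 3 higher and 3 lower. Acta2 had levels of 11.07, 10.66 and 11.20 in knockout hearts, against 12.96, 12.76 and 11.07 in wild-type hearts, so that wild-type replicate 3 lay with the knockout hearts. Alas2, the 1 erythrocyte marker measured, had levels of 10.55, 10.24 and 10.22 in knockout hearts, against 9.02, 9.42 and 9.94 in wild-type hearts (unadjusted p = 0.00365, adjusted p = 0.368 by limma), and wild-type replicate 3 was the nearest to the knockout hearts. The part of these cell types in the motor values was not tested.

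None of the 59 motor genes was called, where 0.0275% of all probes were, and the smallest adjusted p was 0.408. At an unadjusted p under 0.05 there were 2 motor genes (3.39%), against 9.9% of all probes tested. Both were higher in knockout hearts, Kif11 among the mitotic and Kif16b among the transport kinesins, and 0 were lower, where the table had 4.66% higher and 5.24% lower. Groups did not overlap for 5 motor genes, 2 with knockout above and 3 with knockout below, where 14.8% of all probes had separate groups, 7.33% with knockout above and 7.47% with knockout below. With all 6 hearts the motor genes thus held no more small p-values or separate groups than the table. Of 16 alternative fits, only that without wild-type replicate 2 put their share at an unadjusted p under 0.05 above that of the table, at 10.2% against 6.07%. Of the genes at such a p in that fit, 3 were higher and 3 lower, and only Kif11 and Kif16b had a mean above the background level. Of the 59 genes 35 were higher in knockout hearts (59.3%), with a median difference of 0.03, against 47.9% higher and a median of -0.01 over all probes. The mean level lay above the background level for 43 of them. In bulk hearts, fewer cells of a type and less RNA per cell cannot be told apart.

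**Figure D2:**
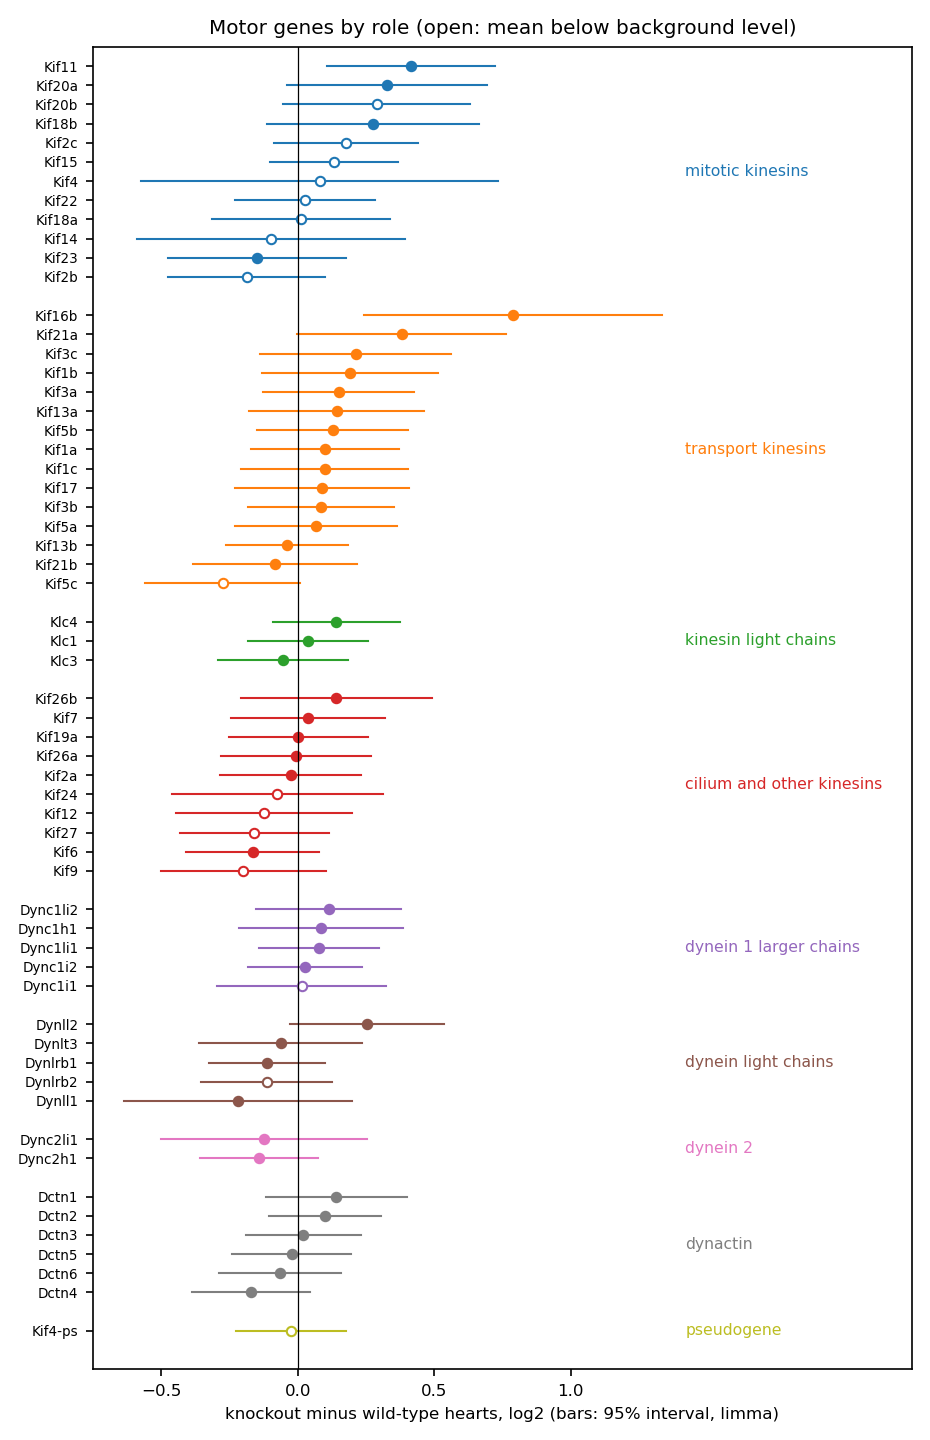
Difference in level between knockout and wild-type hearts on the log2 scale for each of the 59 motor genes, by role, with 95% intervals from limma; open circles are genes whose mean lay at or below the background level of 6.35. The intervals of Kif11 and Kif16b lie above 0 and all others include it, before any adjustment for the number of probes.

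Of the 12 mitotic kinesins, 4 had a mean level above the background level, Kif11, Kif18b, Kif20a and Kif23. Their median difference was 0.30. Over all 12 it was 0.11, with 9 higher and 3 lower, 0 called and 1 at an unadjusted p under 0.05. Dropping knockout replicate 1 put that median at 0.22, and dropping wild-type replicate 3 put it at 0.17.

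Kif11, the motor that pushes the spindle poles apart, had levels of 6.98, 6.80 and 6.76 in knockout hearts, against 6.18, 6.48 and 6.63 in wild-type hearts. Every knockout value lay above every wild-type value, and the lowest wild-type heart lay below the background level. The means were 6.85 ± 0.12 in knockout and 6.43 ± 0.23 in wild-type hearts (SD, n = 3 each). The difference was 0.41, with a 95% interval of 0.11 to 0.72 (limma, unadjusted p = 0.0144, adjusted p = 0.441). Its size ranged from 0.29 without wild-type replicate 1 to 0.51 without wild-type replicate 3, and it did not pass in any of 16 alternatives (adjusted p from 0.135 to 0.805).

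Kif20a, a kinesin of cell division that acts at the cleavage site, had levels of 7.05, 7.08 and 7.01 in knockout hearts, against 6.52, 6.53 and 7.10 in wild-type hearts. Wild-type replicate 3 was the highest of all hearts and the other wild-type hearts were the lowest. The difference was 0.33, with an interval of -0.04 to 0.69 (adjusted p = 0.540), and 0.52 without wild-type replicate 3 (adjusted p = 0.0629, within 0.0629 to 0.869 over 16 alternatives).

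Kif18b, which trims the outer microtubules of the spindle, had levels of 6.78, 7.16 and 7.00 in knockout hearts, against 7.05, 6.45 and 6.60 in wild-type hearts. The groups overlapped, through wild-type replicate 1, and the difference was 0.28 with an interval of -0.11 to 0.67. Kif23, a subunit of the centralspindlin complex of cytokinesis, had levels of 6.72, 6.27 and 6.40 in knockout hearts, against 6.63, 6.45 and 6.77 in wild-type hearts. It was the one of the 4 with a lower mean in knockout hearts, by -0.15 with an interval of -0.48 to 0.18, and its groups overlapped.

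The other 8 mitotic kinesins had means at or below the background level in both groups, so the size of their differences is uncertain. They were Kif2b, Kif2c, Kif4, Kif14, Kif15, Kif18a, Kif20b and Kif22. Their differences ran from -0.19 for Kif2b to 0.29 for Kif20b, with a median of 0.05, and 6 of the 8 were higher. The chromosome-binding kinesin Kif22, whose promoter is shown above, differed by 0.03 with an interval of -0.23 to 0.28. The 2 probes of Kif14, a kinesin of cytokinesis, differed by -0.10 and 0.03, both below background. The pseudogene Kif4-ps lay below background too, with a difference of -0.02.

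Markers of proliferating cells stood in a partly like order across the hearts. Of 15 markers measured, 10 were higher in knockout hearts and 5 lower, with a median of 0.25, 4 at an unadjusted p under 0.05 (26.7%), all higher, and 0 called (smallest adjusted p 0.368). Of all probes 9.9% had such a p, 4.66% higher and 5.24% lower. Their median deviation from the mean of 6 hearts was 0.16, 0.16 and 0.01 in knockout hearts, against -0.22, -0.25 and 0.12 in wild-type hearts. By this median wild-type replicate 3 lay among the knockout hearts, and for Kif20a it was the highest heart. The marker with the smallest p was Top2a, the topoisomerase that untangles chromosomes (adjusted p = 0.368 by limma). Its levels were 6.64, 6.61 and 6.31 in knockout hearts, against 5.99, 5.78 and 6.12 in wild-type hearts. Only knockout replicates 1 and 2 exceeded background, which leaves the amount by which Top2a differed uncertain. The next smallest p was that of Prc1, which bundles spindle microtubules, below the background level in both groups with a difference of 0.47. The others at an unadjusted p under 0.05 were Ccna2 with 0.76 and Cdc20 with 0.27. The 5 lower markers were Aurka with -0.12, Birc5 with -0.08, Bub1b with -0.06, Aurkb with -0.05 and Plk1 with -0.02. In each of the 4, Top2a, Prc1, Ccna2 and Cdc20, the groups did not overlap, so wild-type replicate 3 lay below every knockout heart. Separate groups with knockout above were thus 4 of 15, against 7.33% of all probes. How far the number of dividing cells bears on the mitotic kinesins was not tested.

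**Figure D3:**
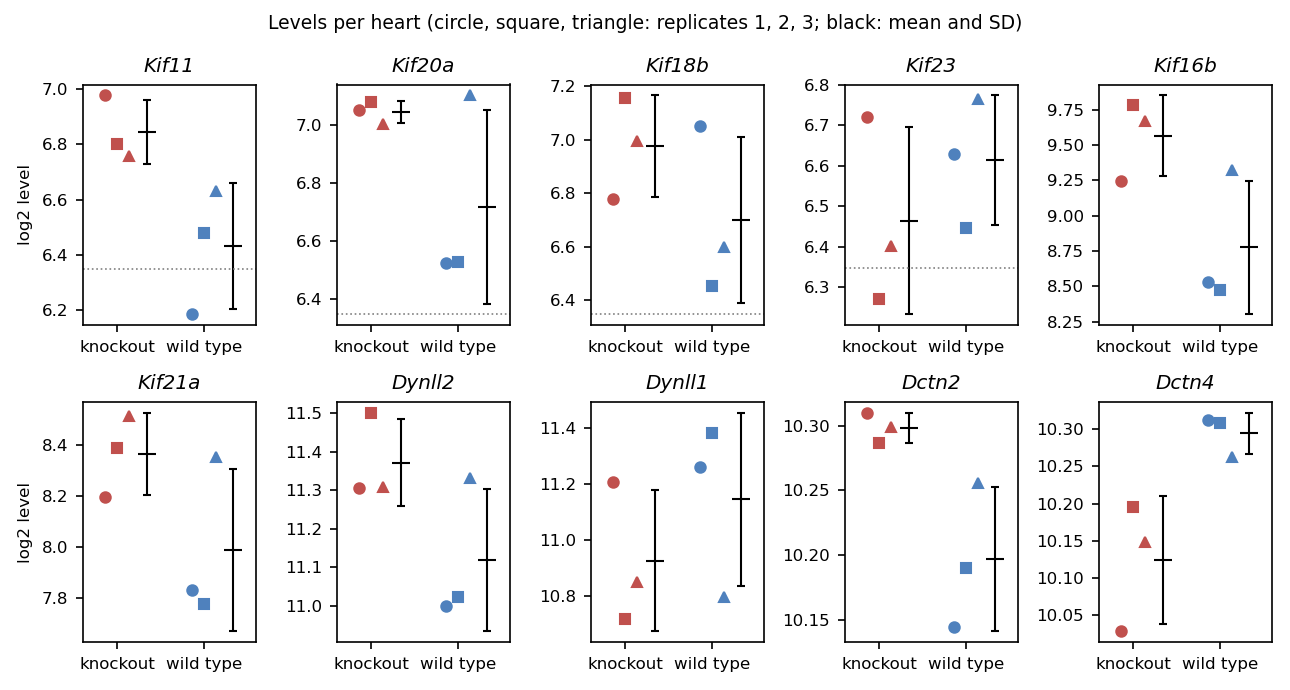
Levels on the log2 scale in each heart for 10 motor genes, with knockout hearts left of wild-type hearts; symbols give the replicate, black bars the mean and SD of 3 hearts, and the dotted line the background level of 6.35 where it falls in range. The vertical axes do not start at 0 and differ between genes; Kif11, Dctn2 and Dctn4 have separate groups, and in Kif20a, Kif16b, Kif21a and Dynll2 wild-type replicate 3 lies at or near the knockout hearts.

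Of the 15 transport kinesins, 12 were higher in knockout hearts and 3 lower, with a median difference of 0.10, 0 called and 1 at an unadjusted p under 0.05. All but Kif5c had a mean above the background level, and groups overlapped for each of the 15. Over the 14 above background the median was 0.11, against 0.30 over the 4 mitotic kinesins above background, of which 1 was lower. Over all genes of each class the medians were close, at 0.10 for transport and 0.11 for mitotic kinesins. The shares higher in knockout hearts were 80% and 75%. The difference between the classes was not tested.

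Kif16b, a kinesin-3 motor that carries early endosomes, had levels of 9.24, 9.79 and 9.67 in knockout hearts, against 8.53, 8.48 and 9.32 in wild-type hearts. Wild-type replicate 3 lay above knockout replicate 1, so the groups overlapped, while the other wild-type hearts lay below every knockout heart. The means were 9.57 ± 0.29 in knockout and 8.78 ± 0.47 in wild-type hearts (SD, n = 3 each). The difference of 0.79 was the largest of the 59 genes, with an interval of 0.24 to 1.34 (limma, unadjusted p = 0.0102, adjusted p = 0.408). Without wild-type replicate 3 it was 1.06 and passed (adjusted p = 0.0416), the 1 motor gene to do so in any alternative, in a fit that called 1.34% of all probes. In the other 15 alternatives it did not pass, with adjusted p up to 0.809 and values down to 0.64 without wild-type replicate 2.

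Kif21a, a kinesin-4 motor that also restrains microtubule growth, likewise had wild-type replicates 1 and 2 below every other heart. Its levels were 8.20, 8.39 and 8.52 in knockout hearts, against 7.83, 7.78 and 8.35 in wild-type hearts. Again the overlap came from wild-type replicate 3 alone, and the difference was 0.38 (unadjusted p = 0.0516, adjusted p = 0.508 by limma). Its paralog Kif21b differed by -0.08, with an interval of -0.38 to 0.22.

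Among the other kinesin-3 motors, which carry synaptic, lysosomal and other vesicles, Kif1b differed by 0.19, Kif13a by 0.14, Kif1c by 0.10, Kif1a by 0.10 and Kif13b by -0.04. Kif1b, with a known role in mitochondrial and vesicle transport, had levels of 10.17, 10.65 and 10.53 in knockout hearts, against 10.26, 10.13 and 10.38 in wild-type hearts. Knockout replicates 2 and 3 were highest, and knockout replicate 1 lay among the wild-type hearts. The 2 Kif1c probes differed by 0.10 and 0.19. Ventricular cardiomyocyte markers were ordered partly alike, with a median deviation of -0.07, 0.07 and 0.05 in knockout hearts, against 0.02, -0.11 and 0.02 in wild-type hearts. Their part in these values was not tested.

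Kinesin-1 is made of heavy chains, Kif5a, Kif5b and Kif5c, and of the light chains that bind cargo. Kif5b, the widely expressed heavy chain, had levels of 10.92, 10.80 and 10.82 in knockout hearts, against 10.57, 10.64 and 10.95 in wild-type hearts. The groups overlapped through wild-type replicate 3, the highest of the 6, and the difference was 0.13 with an interval of -0.15 to 0.40 (adjusted p = 0.744). Dropping wild-type replicate 1 left a difference of 0.05, whereas dropping wild-type replicate 3 gave 0.24. Kif5a and Kif5c, the heavy chains best known from neurons, differed by 0.07 and -0.27. Kif5c had levels of 6.22, 6.33 and 5.99 in knockout hearts, against 6.32, 6.46 and 6.59 in wild-type hearts. It was the lowest difference of the 59 genes (unadjusted p = 0.0569, adjusted p = 0.516 by limma), with a mean just below the background level. Of 10 neuron and Schwann cell markers measured, 6 lay above that level in at least 1 group, and 0 had an unadjusted p under 0.05.

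The light chain Klc1 had levels of 10.05, 10.01 and 9.92 in knockout hearts, against 10.01, 9.99 and 9.87 in wild-type hearts. Its difference of 0.04 was within the spread between hearts, with an interval of -0.18 to 0.26. Klc4 differed by 0.14, the smallest p among the light chains (adjusted p = 0.659), and Klc3 by -0.05.

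Kinesin-2 motors, which serve intraflagellar transport and vesicle movement, gave differences of 0.15 for Kif3a, 0.09 for Kif3b, 0.21 for Kif3c and 0.09 for Kif17. None had an unadjusted p under 0.05. Kifap3, the adaptor that joins Kif3a and Kif3b to cargo, differed by 0.03. Of the 10 cilium, microtubule-depolymerising and other kinesins, 3 were higher and 7 lower, with a median of -0.05, and 4 had means below the background level. Kif2a, which shortens microtubules at their ends, had levels of 8.75, 8.80 and 8.87 in knockout hearts, against 8.94, 8.91 and 8.64 in wild-type hearts, a difference of -0.03 with an interval of -0.28 to 0.23. Kif6 had the smallest p of this group, with a difference of -0.17 (adjusted p = 0.625), while its other probe differed by -0.02. Kif7, a regulator of Hedgehog signalling at the cilium, differed by 0.04 and 0.01 on its 2 probes. Kif26b, an atypical kinesin linked to cell adhesion and polarity, differed by 0.14 and 0.22 on its 2 probes.

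The dynein and dynactin genes divided evenly, with 9 of 18 higher and 9 lower, a median difference below 0.01 in size, and 0 at an unadjusted p under 0.05. Their differences ran from -0.22 to 0.25. Groups did not overlap for 1 of the 18 with knockout above and for 3 with knockout below, where 7.33% and 7.47% of all probes did so. Of these genes 16 had a mean above the background level, and the 2 others were the intermediate chain Dync1i1, best known from neurons, and the light chain Dynlrb2.

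All 5 larger chains of dynein 1, the cytoplasmic motor, were higher in knockout hearts by small amounts. Dync1h1, the heavy chain that holds the motor domain, had levels of 10.33, 10.68 and 10.49 in knockout hearts, against 10.45, 10.24 and 10.56 in wild-type hearts, a difference of 0.08 with an interval of -0.22 to 0.39. The light intermediate chains, which bind adaptors, differed by 0.08 for Dync1li1 and 0.11 for Dync1li2, and the intermediate chain Dync1i2 by 0.03. Groups overlapped for each of them. No interval in this group reached beyond -0.30 or 0.39.

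The light chains showed the widest differences within dynein, in both directions. Dynll2, an LC8 light chain that also serves myosin V, had levels of 11.31, 11.50 and 11.31 in knockout hearts, against 11.00, 11.02 and 11.33 in wild-type hearts. Wild-type replicate 3 lay among the knockout hearts, and the difference was 0.25 with an interval of -0.03 to 0.53 (adjusted p = 0.536). Its paralog Dynll1 had levels of 11.21, 10.72 and 10.85 in knockout hearts, against 11.26, 11.38 and 10.80 in wild-type hearts, a difference of -0.22 with an interval of -0.64 to 0.20. Knockout replicate 1 was high for Dynll1 and wild-type replicate 3 low.

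Fibroblast markers were ordered partly like Dynll1, with a median deviation of 0.26, -0.21 and -0.16 in knockout hearts, against 0.09, 0.25 and -0.22 in wild-type hearts. All 9 lay above the background level, 1 higher and 8 lower in knockout hearts, and their part in the Dynll1 values was not tested. Dynlrb1, a roadblock light chain, had levels of 12.32, 12.16 and 12.26 in knockout hearts, against 12.33, 12.38 and 12.35 in wild-type hearts. The groups did not overlap, though the difference was only -0.11 (adjusted p = 0.708). Dynlt3, a Tctex-type light chain, differed by -0.06.

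Dynein 2, which returns cargo from the tip of the cilium, was measured by 2 genes. Its heavy chain Dync2h1 had levels of 6.30, 6.25 and 6.37 in knockout hearts, against 6.52, 6.39 and 6.44 in wild-type hearts. These groups did not overlap, but the values straddle the background level, and the difference was -0.14 (adjusted p = 0.635). Dync2li1, its light intermediate chain, differed by -0.13 with overlapping groups, and by less than 0.01 in size without wild-type replicate 2.

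Of the 6 dynactin genes, 3 were higher and 3 lower, and no interval reached beyond -0.39 or 0.40. Dctn2, the dynamitin subunit that joins the projecting arm to the rod, had levels of 10.31, 10.29 and 10.30 in knockout hearts, against 10.14, 10.19 and 10.26 in wild-type hearts. Dctn4, a subunit of the rod's pointed end, had levels of 10.03, 10.20 and 10.15 in knockout hearts, against 10.31, 10.31 and 10.26 in wild-type hearts. Both had separate groups, in opposite directions, with differences of 0.10 for Dctn2 (adjusted p = 0.729) and -0.17 for Dctn4 (adjusted p = 0.573). Of all probes 14.8% had separate groups. Dctn1, the large subunit that binds microtubules and dynein, differed by 0.14, and the pointed-end subunits Dctn5 and Dctn6 by -0.02 and -0.06.

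**Figure D4:**
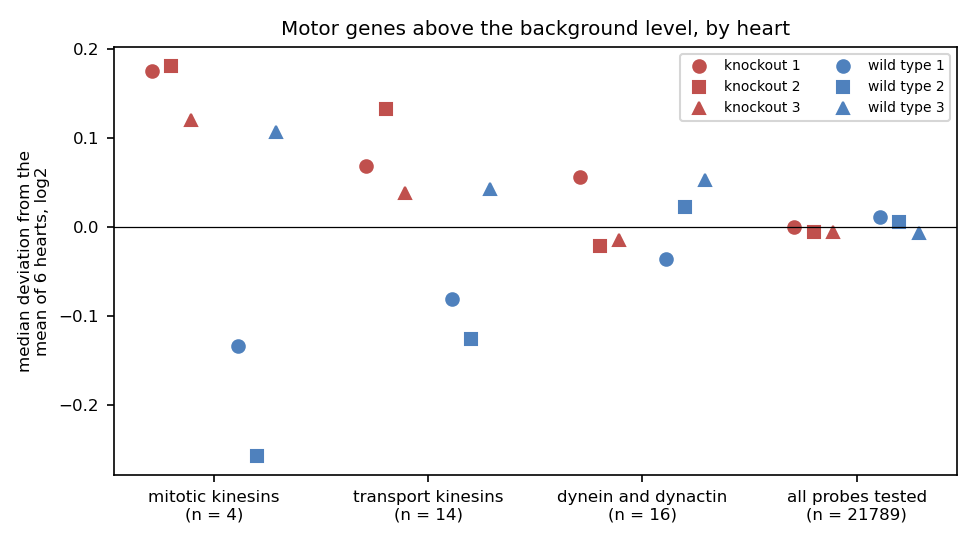
Median over genes of the level in 1 heart minus the mean of the 6 hearts, on the log2 scale, for motor genes above the background level by class and for all probes tested; n is the number of genes or probes. The median of wild-type replicate 3 lies near those of the knockout hearts for mitotic and transport kinesins, at 0.11 and 0.04. All probes lie between -0.0063 and 0.011.

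Taking each heart as a whole, the medians of the mitotic kinesins above background were 0.18, 0.18 and 0.12 in knockout hearts, against -0.13, -0.26 and 0.11 in wild-type hearts. The transport kinesins above background gave 0.07, 0.13 and 0.04 in knockout hearts, against -0.08, -0.13 and 0.04 in wild-type hearts. In both classes wild-type replicates 1 and 2 were lowest by this median. That of wild-type replicate 3 was near the knockout medians, as for proliferation markers, but below all of them for mitotic kinesins. In Kif11 and Kif18b wild-type replicate 3 lay below every knockout heart, while in Kif20a and Kif23 it was the highest heart. In Cenpf, at 8.04, it was the lowest wild-type heart but lay above every knockout heart. The dynein and dynactin genes gave 0.06, -0.02 and -0.01 in knockout hearts, against -0.04, 0.02 and 0.05 in wild-type hearts, so the hearts were not ordered by genotype. Leaving out wild-type replicate 3 raised the motor genes at an unadjusted p under 0.05 to 7 of 59, while the share of all probes was 15.8%. These were Kif11, Kif16b, Kif20a, Kif21a, Kif5b and Dynll2, all higher in knockout hearts, and Dynll1, lower. Without wild-type replicate 2 there were 6 such genes, Kif11, Kif16b and Kif20b higher and Kif9, Kif14 and Kif27 lower, and of these only Kif11 and Kif16b had a mean above the background level. Without knockout replicate 1 there were 5 (8.47%, where 11.2% of all probes were), Kif16b, Kif1b, Kif20b and Kif21a higher and Kif2b lower, and Kif11 was not among them.

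Other genes of the pathway were taken from 2 lists. Of 29 motor adaptors and regulators measured, 20 were higher and 9 lower, with a median of 0.06, 4 at an unadjusted p under 0.05 (13.8%, where 9.9% of all probes were) and 0 called. Groups did not overlap for 4 of the 29 (13.8%), near the 14.8% of all probes. Mapk8ip2, a kinesin-1 scaffold of the JNK pathway, had levels of 6.64, 6.57 and 6.65 in knockout hearts, against 6.44, 6.27 and 6.32 in wild-type hearts (adjusted p = 0.457). Its wild-type values lay near the background level of 6.35, with replicates 2 and 3 below it. Rilp, which recruits dynein and dynactin to late endosomes, had levels of 8.94, 9.15 and 9.09 in knockout hearts, against 9.42, 9.28 and 9.31 in wild-type hearts (adjusted p = 0.464). Both had separate groups, in opposite directions. The others at an unadjusted p under 0.05 were Clip1 with 0.62 and Plekhm2 with 0.35, both with overlapping groups.

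The regulators through which Cenpf meets dynein gave small differences. Nde1 differed by 0.06 and Ndel1 by 0.15, while Pafah1b1, which encodes the dynein regulator Lis1, differed by -0.16. Groups did not overlap for Ndel1, with knockout above, and for Pafah1b1, with knockout below, and the adjusted p were 0.646 and 0.587. Of 10 other motors and kinesin partners, 7 were higher and 3 lower, with 1 at an unadjusted p under 0.05 (10%, near the 9.9% of all probes). This was Kifc3, a minus-end directed kinesin, with levels of 9.65, 10.07 and 9.93 in knockout hearts, against 9.32, 9.30 and 9.78 in wild-type hearts (adjusted p = 0.478). Its overlap again came from wild-type replicate 3. Capza1, a capping protein of actin and of the dynactin rod, had the next smallest p, with a difference of -0.30 (adjusted p = 0.540). In this list groups did not overlap for Capza2, with knockout above, and Capzb, with knockout below, where 14.8% of all probes had separate groups. Cenpe, the kinesin of the kinetochore, differed by 0.29, with both group means below background. Of 14 axonemal dynein heavy chains, which drive beating cilia, 5 lay above background, and 8 were higher and 6 lower. At an unadjusted p under 0.05 were 2 (14.3%, where 9.9% of all probes were), and 0 were called. These were Dnah8 and Dnah7b, both below background, with differences of 0.34 and -0.65. Groups did not overlap for Dnah8 alone, with knockout above, where 14.8% of all probes had separate groups.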

How the data were processed

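RNA of 6 hearts was measured on Affymetrix mouse gene arrays. The deposited values are log2 levels per probe; RMA and Partek 6.6 are named, per the submitters' processing notes, without settings. Of 35556 probes, 21789 had 1 symbol, from the platform annotation, and these were tested. All 59 motor symbols matched the RefSeq gene table of GRCm38.p6 by Entrez ID. At least 11 of the 20 neighbours in probe order lay on the gene's chromosome for each motor probe. The background level is the 95th percentile of the mean levels of receptor probes. Arrays have no read depth, and precision is limited by their number, 3 a group.

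The 2 genotypes were compared by limma 3.58.1 in R 4.3.3 (lmFit and eBayes, two-sided), with Benjamini-Hochberg adjustment over all 21789 probes and a threshold of 0.05. No adjustment was made over the motor genes alone. The fit was tested on simulated data. The members, roles and lists were chosen with earlier results of these data known. Described singly are called genes, genes above background at an unadjusted p under 0.05, and in each role the gene of highest mean and that of smallest p. Of the pathway lists the 2 smallest p are given. Other genes, among them Kif18b, Kif21a, Dynll1, Dctn2 and the cell type markers named, and the printed promoters were chosen after their values were seen. Same-numbered hearts did not deviate together (correlations of -0.11, -0.16 and -0.003), so the numbers were not taken as pairs. Alternatives were 3 normalizations, a filter on dim probes, a test over every probe, averaging the probes of a gene, 3 variance models, a block for replicate number and leaving out each heart. Figures were drawn with matplotlib 3.10.9.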

Additional observations from a re-analysis of the deposited data

How the results depend on the processing

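No motor gene was called in 15 of 16 alternatives, and Kif16b was called without wild-type replicate 3. Leaving out 1 heart gave 1 to 293 called probes over the whole table and 0 to 1 called motor genes, 2 to 7 motor genes at an unadjusted p under 0.05, a median of 0.071 to 0.22 for mitotic kinesins, and a Cenpf difference of -2.27 to -1.92. It also gave -0.28 to 0.0037 for Dync2li1, -0.12 to 0.030 for Kif2a and -0.0061 to 0.072 for Klc1, none of them called. The table's calls numbered 1 with all 35556 probes tested, 33 with array weights, 22 with trend and robust variance and 0 with the plain linear model. At an unadjusted p under 0.05, 8 motor genes stood with array weights and 4 with trend and robust variance. The median of mitotic kinesins was 0.22 with array weights, and 0.30 over the 4 that pass a filter on dim probes. Cenpf, at -2.07 in each, lost its call with all probes tested (adjusted p = 0.281) and in the plain linear model (adjusted p = 0.476). Klc1 was -0.0071 with array weights, and Kif4-ps 0.026 with cyclic loess and 0.033 with quantile normalization. With the replicate number as a block there were 11 calls over the table and 0 among motor genes. The medians of transport kinesins, from 0.074 to 0.14, and of dynein and dynactin genes, from -0.034 to 0.018, moved by less than the spread between hearts. The cause of these changes was not tested, except that the filter leaves fewer genes. With 3 hearts a group, differences under about the half-width of the intervals given could not be resolved even before adjustment. Larger ones, those of Kif11 and Kif16b, were not called after adjustment over all probes with all 6 hearts. Levels near background are uncertain.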
